A study of Mus musculus with 21 samples.

Results

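The genes described here are 9 mast cell genes, Tpsab1, Tpsb2, Cpa3, Cma1, Mcpt4, Kit, Hdc, Ms4a2 and Fcer1a, in E14.5 lung of mice lacking the long noncoding RNA Fendrr. They were taken by gene symbol from a table of 42760 gene entries, in which all 9 symbols were found. The genes were chosen by the lung levels themselves, Tpsab1 being among the strongest increases in the knockout, so the lung values are given as a description and carry no test. Lung RNA of littermate embryos was sequenced in 2 wild-type (Fendrr+/+) and 2 knockout (Fendrr-/-) libraries, and brain of 2 other lincRNA knockout strains serves as contrast. From the Peril strain this was E18.5 whole brain, and from the linc-Brn1b strain it was P7 whole brain and, at the embryonic ages E13.5 and E15.5, the telencephalon. Each group had 2 libraries, except linc-Brn1b-/- at E15.5, for which the labels list 3. In each strain the lincRNA gene was replaced by a lacZ reporter cassette in hybrid 129S6/SvEv and C57BL/6N embryonic stem cells, and founders were crossed once with C57BL/6J. The wild-type and knockout groups therefore share a mixed background, and the knockouts also carry the cassette. The labels name the Fendrr strain after Foxf1a and the Peril strain after Sox2.

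Mast cells are tissue-resident cells of the blood lineage that mature from circulating progenitors after these enter a tissue. Their survival and growth depend on the receptor tyrosine kinase Kit and its ligand, and mature cells store serine proteases, carboxypeptidase A3 and histamine in granules that are released when antigen crosslinks IgE bound to the high-affinity receptor. In mice, connective tissue mast cells carry tryptases (Tpsab1, Tpsb2) and the chymases Cma1 and Mcpt4. Kit is also made by other cells, among them blood progenitors, melanoblasts, germ cells, interstitial cells of Cajal and neurons.

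The authors' deposited values are FPKM, fragments scaled to transcript length and to the number of mapped fragments. A group's libraries share a single value. The spread between embryos is thus unknown for every value below, and no difference could be set against it. Differences are of log2(FPKM + 1), knockout minus wild type, and a gene was called higher or lower at a difference of at least 1 (2-fold on this scale) if its mean over both groups was at least 1 FPKM. The added 1 makes differences of low genes smaller than their ratios.

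In the lung table, the entry of the targeted locus, linc-Cox4nb-4, was at 38.4 FPKM in Fendrr+/+ and 0.0450 FPKM in Fendrr-/-. The lung epithelial gene Sftpc was at 819 and 871 FPKM. The tables hold some values of 0 that cannot be read as absence, since 11 entries at 100 FPKM or more in 1 lung group were listed at 0 in the other, mitochondrial genes among them. A further difference between the groups was in 4 Y-linked genes, which lay between 4.55 and 13.51 FPKM in wild type and were listed at 0 in knockout. The embryos' sex and the genotype cannot be told apart in these libraries.

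The tryptase and chymase genes, Cpa3 and Hdc lie at 4 places in the genome of build mm9, given here with starts counted from 1 and ends as deposited. Tpsab1 (chr17:25480190-25482507, minus strand) and Tpsb2 (chr17:25503278-25505037, plus strand) are neighbours 20770 bp apart in the tryptase cluster. Cma1 (chr14:56560288-56563498, minus strand) and Mcpt4 (chr14:56678581-56681147, minus strand) lie 115082 bp apart in the chymase cluster. Cpa3 (chr3:20097990-20142080) and Hdc (chr2:126419404-126444401) are single genes on the minus strand. The Cpa3 entry is longer than the gene annotated in GENCODE, which starts at 20115516, and it shares its coordinates with the entry of the antisense transcript linc-Cpa3-AS. In RefSeq, Tpsab1 of C57BL/6J is listed as a transcribed pseudogene, and which Tpsab1 allele the embryos carried was not measured.

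The 250 bases before the transcription start are shown for the carboxypeptidase and both chymases, the members with stored proteases for which RefSeq promoters (GRCm38.p6) were used. Each was found once, letter for letter, in the mm9 genome. Capitals mark words that GATA factors, regulators of the mast cell lineage, are known to bind.
Cpa3: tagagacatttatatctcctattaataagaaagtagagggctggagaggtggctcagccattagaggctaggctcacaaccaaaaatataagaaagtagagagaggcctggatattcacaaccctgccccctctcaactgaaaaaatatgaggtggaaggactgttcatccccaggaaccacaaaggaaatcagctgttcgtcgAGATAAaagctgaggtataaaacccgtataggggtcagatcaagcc
Cma1: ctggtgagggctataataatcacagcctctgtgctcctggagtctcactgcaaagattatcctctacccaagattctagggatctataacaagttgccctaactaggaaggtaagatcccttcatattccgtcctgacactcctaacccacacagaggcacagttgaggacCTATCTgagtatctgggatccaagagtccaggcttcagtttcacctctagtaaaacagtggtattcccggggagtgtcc
Mcpt4: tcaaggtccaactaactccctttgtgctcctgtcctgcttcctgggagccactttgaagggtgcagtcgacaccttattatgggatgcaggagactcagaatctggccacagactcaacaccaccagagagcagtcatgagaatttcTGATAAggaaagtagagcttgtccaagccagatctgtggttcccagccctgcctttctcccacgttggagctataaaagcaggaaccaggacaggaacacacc
These stretches lie at chr3:20142081-20142330, chr14:56563513-56563762 and chr14:56681148-56681397, all on the minus strand. The 4 words searched, on both strands, begin with AGATA or with TGATA and end in A or in G. Cpa3 holds AGATAA from 46 to 41 bases before the start, Mcpt4 holds TGATAA from 103 to 98 bases before it, and Cma1 holds AGATAG on the opposite strand from 79 to 74 bases before it, printed as its complement. Cpa3 and Mcpt4 also hold TATAAA, from 31 to 26 and from 32 to 27 bases before the start, and Cpa3 holds it once more on the opposite strand from 242 to 237. A GATA word was present in 6 of the 7 members with a promoter sequence, Kit being without one, and in 26.5% of 32536 mouse promoters of the same length. TATAAA and CATGTG were each present in 12.3% of those promoters. The GC content of the 6 members with a GATA word lay between 38.8% (Ms4a2) and 51.2% (Mcpt4), and that of Kit was 70.8%. The mouse promoters were not matched for GC content, so these shares do not measure enrichment. A further motif, CATGTG, which MITF is known to bind, was found in Fcer1a alone, from 208 to 203 bases before the start on the opposite strand. None of the words found in the members overlap each other. Letters alone do not show that a factor binds.

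In E14.5 lung, 5 of the 9 genes, Tpsab1, Tpsb2, Cpa3, Cma1 and Hdc, were higher in Fendrr-/- by 3.07- to 6.11-fold, and none was called lower. Across all genes with a mean of at least 1 FPKM, 0.572% (80 of 13979) were called higher and 0.293% (41) lower. With shares this small, most short gene lists would hold no call. The comparison with these shares is a description, since the lung contrast was used to choose the genes. Summed, the 5 genes were at 15.2 and 58.4 FPKM, a ratio of 3.85. Of the other 4, Kit was lower without reaching the call, Mcpt4 and Ms4a2 stayed under the minimum level, and Fcer1a was listed at 0 in both groups. The median difference was 1.36 over all 9 members, 1.57 over the 6 that passed the minimum level and 0.0040 over all genes. In bulk RNA, a change in the number of mast cells and a change in RNA per cell cannot be told apart.

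**Figure D1:**
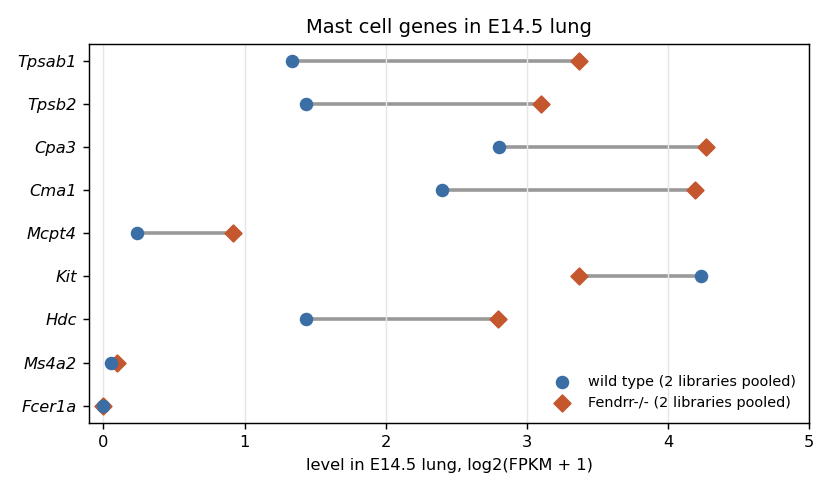
Level of each mast cell gene in E14.5 lung as log2(FPKM + 1), for wild type (blue circles) and Fendrr-/- (orange diamonds), each point 1 value from 2 pooled libraries with no error available. The 4 granule genes Tpsab1, Tpsb2, Cpa3 and Cma1 and the histamine enzyme gene Hdc lie to the right in Fendrr-/-, whereas Kit lies to the left.

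Tpsab1 and Tpsb2 are genes of the tryptases, the trypsin-like proteases of mast cell granules. Whether the embryos carried the Tpsab1 allele that RefSeq lists as a pseudogene was not measured. Tpsab1 was at 1.53 FPKM in wild type and 9.35 FPKM in Fendrr-/-, a ratio of 6.11 and a difference of 2.03. It ranked 13 of 13979 genes by difference. Tpsb2 went from 1.71 to 7.59 FPKM, a ratio of 4.44 and a difference of 1.66. The ratio of Tpsab1 to Tpsb2 was 0.895 in wild type and 1.23 in knockout, so Tpsab1 was the lower of the pair in one group and the higher in the other.

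Cpa3 encodes carboxypeptidase A3, an abundant granule enzyme that cleaves peptides from their C-terminal end, and was the highest of the 5 called genes in both groups. It was at 5.96 FPKM in wild type, against 18.3 FPKM when Fendrr was lost, the smallest ratio of the 5, at 3.07 (difference 1.47). The overlapping linc-Cpa3-AS was at 0.285 and 0.248 FPKM. Cma1, the mouse alpha-chymase, went from 4.27 to 17.3 FPKM, a ratio of 4.04 and a difference of 1.79. Cma1 thus approached the level of Cpa3, from 0.717 of it in wild type to 0.945 in knockout. Mcpt4, the beta-chymase typical of mature connective tissue mast cells, was at only 0.177 FPKM in wild type, compared with 0.892 FPKM after knockout. Its ratio of 5.05 was among those of the called genes, whereas its difference of 0.69 was under the call and its mean of 0.534 FPKM under the minimum. Of its annotated transcript windows of 50 nucleotides, 6.16% also occur in Cma2 or Mcpt9, though none as long as a read does.

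Hdc encodes histidine decarboxylase, the enzyme that makes histamine, and is also expressed by basophils and some neurons. It was at 1.71 FPKM in wild type and 5.95 FPKM in Fendrr-/-, a ratio of 3.48 and a difference of 1.36. With this it had the smallest difference of the called members, at rank 41, and lay nearest inside the call. In level it started beside Tpsb2 in wild type and remained below it in knockout.

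Kit, at chr5:75971012-76052746 on the plus strand, was the highest of the 9 genes in wild-type lung at 17.8 FPKM, and was at 9.32 FPKM in Fendrr-/-, 52.4% of wild type. The difference of -0.86 placed it at rank 13929 of 13979. Of the members that passed, it was the one outside the call. The receptor and the granule genes therefore differed in opposite directions. For each FPKM of Cpa3 there were 2.98 FPKM of Kit in wild type and 0.510 in knockout. Of the IgE receptor, Ms4a2 (the beta chain; chr19:11691683-11698133) was at 0.0378 and 0.0676 FPKM, and Fcer1a (the alpha chain; chr1:175151402-175157360) was listed at 0 in both groups. As a listed 0 cannot be read as absence in this table, the values give no level for Fcer1a. The common gamma chain Fcer1g, which macrophages and other leukocytes share, was at 14.2 and 18.3 FPKM.

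**Figure D2:**
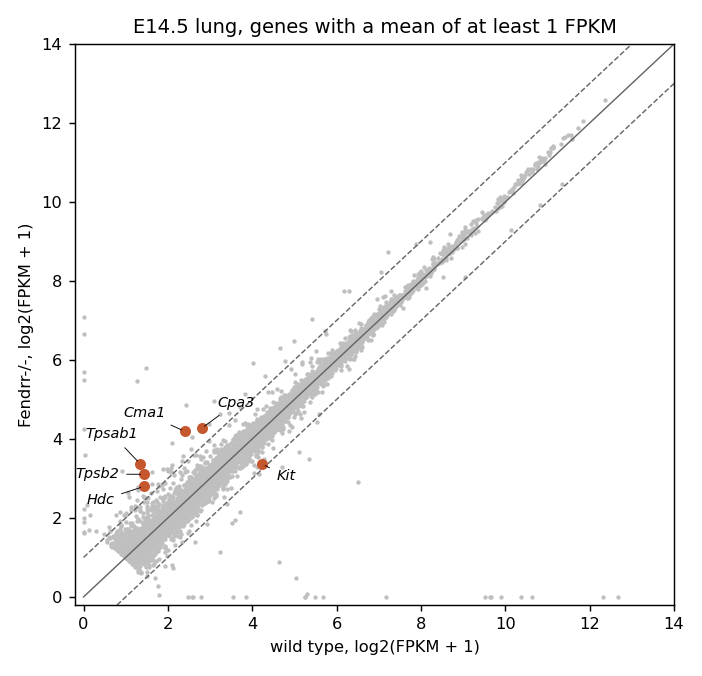
Wild-type against Fendrr-/- level in E14.5 lung, both as log2(FPKM + 1), for the 13979 genes with a mean of at least 1 FPKM (grey) and the 6 mast cell genes among them (orange); the solid line marks equal levels and the dashed lines the 2-fold call. Tpsab1, Tpsb2, Cpa3, Cma1 and Hdc lie above the upper dashed line and Kit lies just inside the lower one.

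None of the genes around the protease genes that passed the minimum level was called. This is near the shares over all genes, of which 0.572% were called higher and 0.293% lower. Within 250 kb of Tpsab1 and Tpsb2, 14 of 30 other entries passed the minimum level. Their median difference was -0.05, between -0.41 and 0.21, and 0 were called. Within 250 kb of Cma1 and Mcpt4, 11 of 37 passed, with a median of -0.00 and a range from -0.29 to 0.16, again with 0 calls. The chymase neighbour linc-Cma1 was at 0.0497 and 0.269 FPKM. Of the neighbours under the minimum level, the largest differences were those of Prss34 beside the tryptases, a basophil protease gene at 0.172 and 1.09 FPKM (0.83), and of an entry named Ube2j2 between the chymases, at 1.23 and 0.0527 FPKM (-1.08). Both were singled out after their values were seen.

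Of the other mast cell genes, the remaining proteases were under the minimum level, and none of those that passed it was called. Over all genes, 0.572% were called higher and 0.293% lower, so few calls would be found in any such list. Of 7 further protease genes (Mcpt1, Mcpt2, Mcpt9, Cma2, Tpsg1, Ctsg and Gzmb), 0 passed the minimum level. Mcpt2, a chymase typical of mucosal mast cells, was at 0.215 FPKM (wild type) and 0.658 FPKM (knockout). Among genes for granule matrix, amine handling and lipid mediators, 10 of 13 passed and 0 were called in either direction, with a median difference of -0.11. Srgn, the proteoglycan core of the granule, was at 15.49 and 13.6 FPKM, and Alox5ap, a cofactor of leukotriene synthesis, at 8.02 and 5.64 FPKM. Both are also made by other leukocytes. Both further amine genes were under the minimum in mean level, Slc18a2 (the vesicular amine transporter) at 0.485 and 1.04 FPKM, and Tph1 (tryptophan hydroxylase, for serotonin) at 0.0754 and 0.335 FPKM. Of 20 receptor and signalling genes, 11 passed and 0 were called, with a median of -0.01. Il1rl1, the receptor for interleukin 33, was at 0.487 and 1.17 FPKM, and the peptide receptor genes Mrgprb1 and Mrgprb2 were listed at or near 0. The entry for the kinase Syk was listed at 0 in wild type and 0.0067 FPKM in knockout, so it was not informative.

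None of the transcription factors of the lineage was called, as was the case for most genes (0.572% were called higher and 0.293% lower). Of 12, 11 passed the minimum level, 0 were called and the median difference was -0.05. Gata2, which mast cell progenitors require, was at 4.29 and 3.23 FPKM. Mitf, a regulator of granule genes and of Kit, was at 1.20 and 1.13 FPKM. Gata1 was at 0.890 and 0.865 FPKM, and Runx1 at 2.36 and 1.79 FPKM. Of the 11 that passed, 7 had lower and 4 had higher values in knockout. Among the higher were Bhlhe40, at 4.46 and 5.48 FPKM, and Meis1, at 32.7 and 38.3 FPKM. Among growth factors, 4 of 9 passed and 0 were called, with a median of 0.04. Kitl, the ligand of Kit, was at 27.2 and 29.2 FPKM. Il33, a cytokine that acts on mast cells, was at 2.35 and 3.81 FPKM, whereas Il3, Il4 and Il9 were listed at 0 in both groups.

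Markers of other blood cells gave a mixed picture, with few calls, as over all genes (0.572% called higher and 0.293% lower). Basophil and eosinophil genes were low, with 0 of 7 at the minimum level. The basophil protease gene Mcpt8 was at 0.206 and 0.0507 FPKM, a difference opposite to that of Prss34. All 8 pan-leukocyte markers passed, with 0 calls and a median of -0.03, and all 11 macrophage markers passed, with 0 calls and a median of 0.04. The 3 neutrophil genes that passed, of 8 in the table, had higher values in knockout without being called. S100a8 was at 5.32 and 10.97 FPKM, S100a9 at 5.86 and 10.3 FPKM and Camp at 0.586 and 1.42 FPKM. Camp passed through its knockout value. Of the neutrophil genes under the minimum, some were lower in knockout. The precursor gene Elane was at 0.316 and 0.0226 FPKM, Mpo at 0.242 and 0.165 FPKM and Prtn3 at 0.895 and 0.825 FPKM. Ngp (0.734 and 1.18 FPKM) and Ltf (0.331 and 0.534 FPKM) had higher values. Lymphocyte markers had a median of 0.16 over 5 genes, with 0 calls.

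Other blood lineages that share regulators or receptors with mast cells were lower in part, with few calls. Over all genes, 0.572% were called higher and 0.293% lower. Of 7 erythroid genes that passed, 1 was called lower, Alas2 (the first enzyme of haem synthesis in red cells), at 45.2 and 20.5 FPKM. The adult globin gene entries Hba-a2 (1816 and 969 FPKM) and Hbb-b1 (1124 and 623 FPKM) were lower without being called, while the embryonic globin genes Hbb-y and Hba-x had higher values in knockout. Of 5 megakaryocyte and platelet genes that passed, 0 were called and 4 had lower values, with Itga2b at 3.93 and 2.00 FPKM. Among the lower ones, Gp9 and Treml1 were under 1 FPKM in knockout and passed through their wild-type values. Of the non-blood cells that make Kit, interstitial cells of Cajal had markers with a median of -0.10 over 3 genes, and 0 of 6 melanocyte genes reached the minimum level. The part of these cells in the lower Kit level was not tested.

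Genes of heart muscle were higher in the same comparison, in which 0.572% of all genes were called higher and 0.293% lower. All 12 cardiac markers passed, 11 were called higher and 0 lower, with a median difference of 1.54 and a range from 0.50 to 4.32. Of these, Nppb, Myl2, Myl3 and Ryr2 were under 1 FPKM in wild type and passed through their knockout values. Their summed level was 386 FPKM (wild type) and 1180 FPKM (knockout). Nppa, the atrial natriuretic peptide gene, went from 1.77 to 54.2 FPKM, and Myh6, the alpha myosin heavy chain gene, from 24.1 to 77.5 FPKM. Of 7 mesothelium and pericardium markers, 6 had higher values and 0 were called, with a median of 0.39. Thymus and oesophagus markers had a median of 0.19 over 6 genes with 0 calls, and lung markers one of 0.02 over 9 genes with 0 calls. The lists with 0 calls are near the shares over all genes. The brain list had 1 gene at the minimum level. How much heart or other thoracic tissue each lung sample held, and its part in the mast cell values, was not tested.

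**Figure D3:**
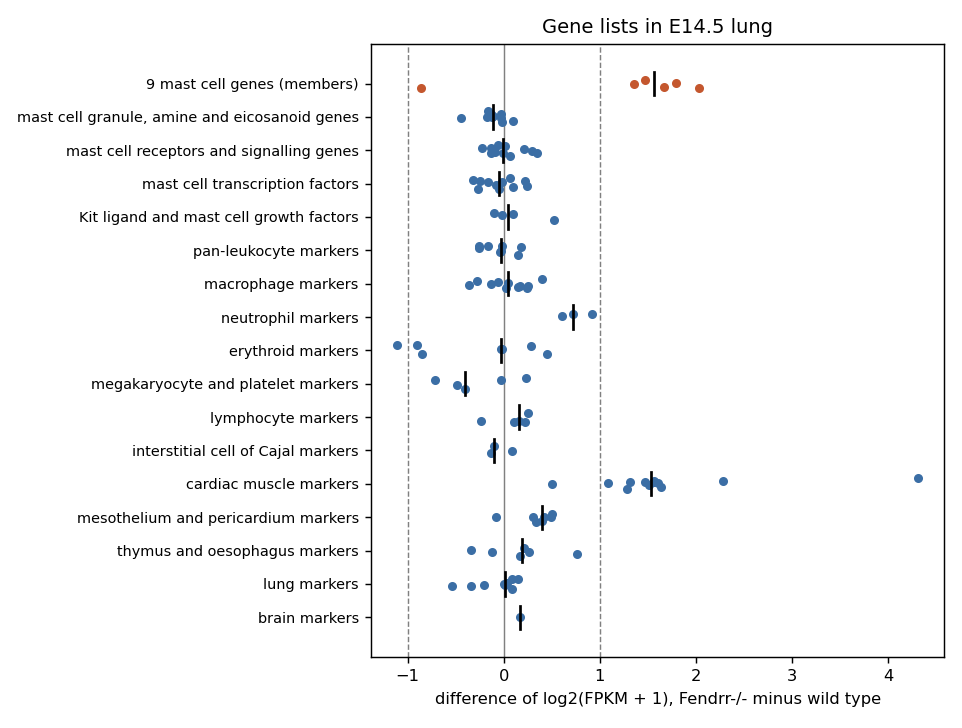
Difference of log2(FPKM + 1) in E14.5 lung, Fendrr-/- minus wild type, for genes with a mean of at least 1 FPKM in each list (points, scattered vertically for view only), with the list's median as a black bar and the 2-fold call as dashed lines. Of the lists shown, the mast cell members and the cardiac muscle markers have medians above 1, at 1.57 and 1.54.

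Other mast cell genes did not have the highest correlations with Tpsab1, the gene whose lung increase entered the choice of genes. Correlations with Tpsab1 (Pearson's r of log2(FPKM + 1)) over the 10 group values of the 3 tables were ranked among 12389 genes. These passed the minimum level in lung, and each had a symbol present and not repeated in every table. Entries with Gm, RIKEN, linc or XLOC names were left out of the ranking. The highest correlations among the ranked genes were those of Lmod2, Myoz2, Pth, Ttn and Cav3, between 0.995 and 0.999. Of these, 4 belong to striated muscle and Pth encodes parathyroid hormone. Myoz2 was at 1.07 and 5.19 FPKM in lung and Pth at 0.705 and 3.23 FPKM, and neither exceeded 0.0580 FPKM in a brain group. Cma1 came at rank 36 (r = 0.967), Tpsb2 at rank 40 (0.966), Cpa3 at rank 53 (0.956), Hdc at rank 697 (0.874) and Kit at rank 11093 (-0.75). The measure rests on the 2 lung values, since Tpsab1 was near 0 in brain, and on how near 0 a gene was in brain. Of the 5 top genes, Cav3 had the highest brain value, at 0.143 FPKM. The highest brain values of Tpsb2, Cma1, Cpa3 and Hdc were 0.571, 0.724, 1.05 and 1.74 FPKM. Lmod2, Pth and Cav3 were under 1 FPKM in wild-type lung and passed the minimum through their knockout values. The tables were also normalized separately. The order is thus no evidence of a shared cell type, and the correlations are given with no p.

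In brain, granule genes were low, and none of the 9 genes was called in any of the 4 comparisons. Only Kit and, at P7, Hdc passed the minimum level, so the other members could not be called whatever their difference. At such low levels the added 1 also keeps differences small whatever the ratio. Of the 5 genes called in lung, the differences in brain lay between 0 and 0.16 for Tpsab1, -0.02 and 0.11 for Tpsb2, -0.04 and 0.54 for Cpa3, -0.11 and 0 for Cma1, and -0.19 and 0.01 for Hdc. At E18.5 in the Peril strain, Kit passed the minimum level, at 16.3 FPKM in wild type and 15.2 FPKM in Peril-/-. Of all genes there, 0.347% were called higher and 0.229% lower. Cpa3 showed the largest difference of the 9, from 0.408 to 1.05 FPKM, while Cma1 was at 0.724 and 0.602 FPKM, Tpsb2 at 0.460 and 0.571 FPKM and Tpsab1 at 0 and 0.0143 FPKM. Hdc was at 0.940 and 0.941 FPKM.

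In the linc-Brn1b strain, levels can be compared across ages, since 1 table holds the 6 groups. In telencephalon at E13.5 and E15.5, Tpsab1 was listed at 0 in all 4 groups, and the 5 protease genes together were at 0.0232 and 0.0401 FPKM (wild type and linc-Brn1b-/-, E13.5) and at 0.0292 and 0.0204 FPKM (E15.5). In whole brain at P7 they were at 2.01 and 1.82 FPKM. The tissue taken also differs between these ages, and age and tissue cannot be told apart. At P7, Mcpt4 was the highest protease gene in wild type at 0.653 FPKM, and was at 0.395 FPKM in knockout, followed by Cma1 at 0.540 and 0.520 FPKM, Tpsb2 at 0.423 and 0.429 FPKM and Cpa3 at 0.380 and 0.343 FPKM. Tpsab1 was at 0.0126 and 0.133 FPKM, a share of 0.0298 and 0.309 of the Tpsb2 level. Mcpt4 was thus first of the proteases in wild-type P7 brain but came in linc-Brn1b-/- after Cma1 and Tpsb2, whereas in both E14.5 lung groups Cpa3 was first and Mcpt4 last. Whether neighbours in these orders differ beyond the spread between animals is unknown.

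Kit and Hdc, genes that neurons also express, were the members at or above the minimum level in brain. Kit lay between 13.4 and 17.0 FPKM in all 8 brain groups, and at 17.8 and 9.32 FPKM in wild-type and Fendrr-/- lung. The tables of the 3 strains were normalized separately, so these Kit levels are not on a common scale. Hdc was between 0.296 and 1.74 FPKM, lowest in telencephalon and highest at P7, where it passed at 1.74 and 1.52 FPKM. The share of all genes called higher and lower was 0.422% and 1.63% at E13.5, 0.141% and 0.207% at E15.5, and 0.473% and 0.501% at P7. Ms4a2 did not exceed 0.0144 FPKM and Fcer1a did not exceed 0.0139 FPKM in any brain group.

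**Figure D4:**
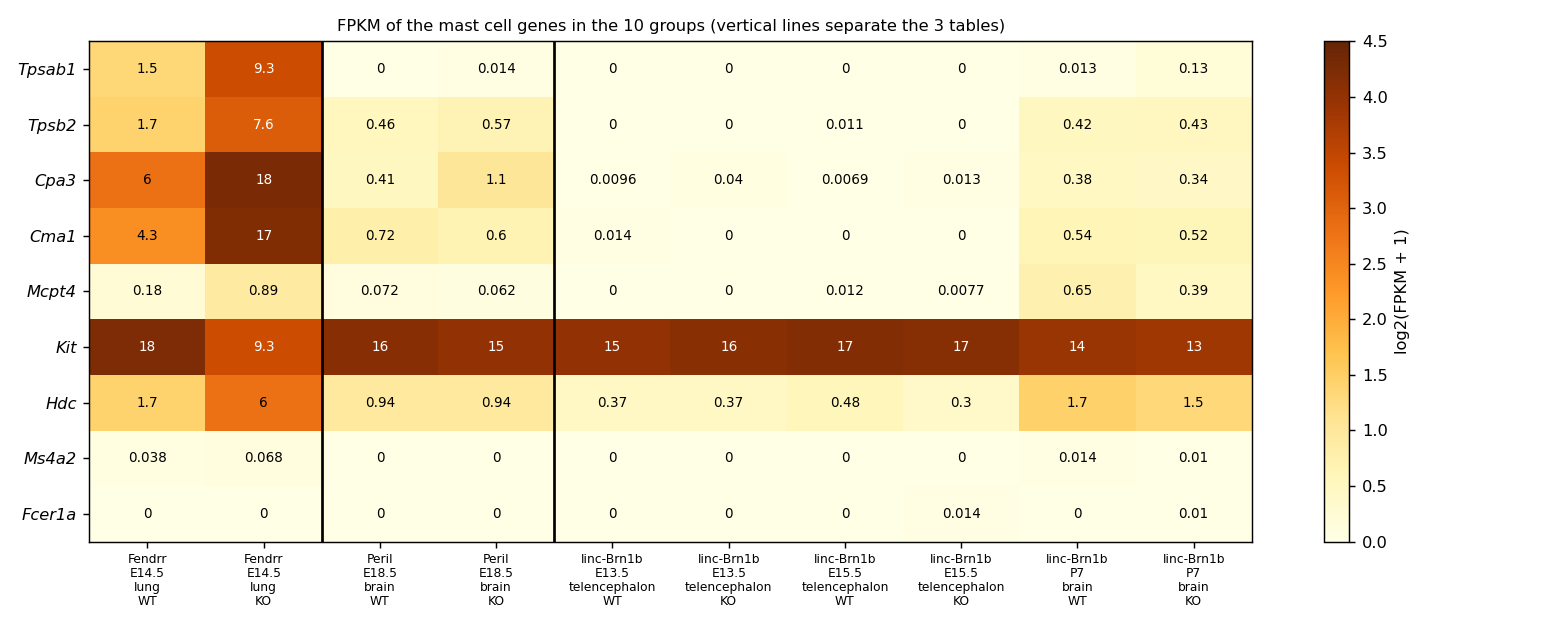
FPKM of the 9 mast cell genes (rows) in the 10 groups (columns, WT wild type and KO knockout), printed in each cell and coloured by log2(FPKM + 1), with vertical lines between the 3 separately normalized tables. Granule genes are highest in Fendrr-/- lung and near 0 in embryonic telencephalon, Kit is above 9 FPKM everywhere, and the IgE receptor genes Ms4a2 and Fcer1a are listed under 0.1 FPKM.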

How the data were processed

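RNA was extracted from mouse tissue, and libraries made with the TruSeq RNA kit were sequenced as paired-end reads. TopHat2 placed these on mm9, Cufflinks (2.0.2 in the submitters' processing notes) built the transcripts, and the authors compared genotypes with Cuffdiff2. The expression values the authors deposited are FPKM, 1 per group, in 3 tables normalized separately, with 0 columns of values per sample. Depth is therefore unknown, and no test, error, interval or floor was computed. The tables also hold the authors' fold changes, test statistics and p-values, which were not used.

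Groups followed the genotype, age and tissue labels of 21 libraries. Differences of log2(FPKM + 1) were computed with Python 3.11.15 and pandas 2.3.3, and a difference of at least 1 was called among entries with a mean of at least 1 FPKM. The calling rule was run on simulated data without noise, with changes planted in genes of higher level. This checks the arithmetic of the rule and gives no error rate for the calls. All 9 members were named, along with genes of 20 lists written by hand and the 5 ranked genes with the highest correlation with Tpsab1. Fcer1a, Mcpt2, Slc18a2, Tph1, Il1rl1, Mcpt8, Prss34, Elane, Gata1 and the other low genes were named for being under the minimum. The entries linc-Cpa3-AS and linc-Cma1 were named for their position. Members and lists were chosen with earlier results of these data known. Alternatives were pseudocounts of 0.1 and none, centring, other minimum levels, and calls at 1.5- and 4-fold. Promoter sequences are from RefSeq.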

Additional observations from a re-analysis of the deposited data

How the results depend on the processing

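In lung, 5 genes were called higher with either other pseudocount, after centring, without a minimum level, with a minimum of 1 FPKM in each group and at 1.5-fold, while at 4-fold 1 was (Tpsab1). At 1.5-fold, 1 gene was called lower (Kit). The median difference over the members that passed was 1.86 with a pseudocount of 0.1, 1.91 with none, 1.56 after centring and 1.36 over all 9 without a minimum level. No called value changed sign. The pseudocount matters most for low genes, such as Mcpt4, whose difference of 0.69 became 1.84 with a pseudocount of 0.1 and 2.34 with none. Calls in brain were 0 among the members that passed under each of these alternatives. Wherever a minimum level was kept, only Kit and, at P7, Hdc could be called. Leaving out each replicate in turn was not run, because the tables hold 1 value per group. No paired analysis was possible because no column carries a replicate. With depth unknown, levels under 1 FPKM, such as those of Mcpt4 in lung and of the protease genes in brain, cannot be given a precision.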
